A study of Mus musculus with 7 samples.

Results

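The 8 genes described here encode aldehyde dehydrogenases: Aldh3a1, Aldh3b1, Aldh1a1, Aldh1a2, Aldh1a3, Aldh1l2, Aldh2 and Aldh18a1. They are 8 of the 13562 genes that the platform annotation names through a probe set with 1 gene symbol, and each had 1 such probe set on the array. The set was chosen by the measured Aldh3a1 values of these arrays, which earlier results placed among the top gains in fibroblast libraries with high Pou5f1, and its relatives were picked to be set beside it. The levels are therefore a description, and no test was made of them.

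RNA was measured on Affymetrix arrays, 1 array for each of 7 mouse samples. V6.5 embryonic stem cells (ESCs) were either wild type (WT, Utx +/Y) or Utx knockout (KO, Utx -/Y). Utx, encoded by the X-linked gene Kdm6a, takes methyl groups off lysine 27 of histone H3. Mouse embryonic fibroblasts (MEFs) of the V19-OSKM type, again Utx +/Y or Utx -/Y, were profiled without and with doxycycline (DOX), which switches on Oct4, Sox2, Klf4 and Myc, the 4 reprogramming factors (OSKM). The 4 Utx MEF arrays thus all come from cells that carry the inducible factors. The last array held fibroblasts derived from Nanog-/- ESCs and transduced with OSKM lentivirus for 8 days. The title of the series places Utx in the return of somatic and germ cells to pluripotency. For how long DOX was given, how many embryos or clones were used and their ages is not given in the sources used. With 1 array per condition, no difference could be checked against replicates, and no p-value is given.

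Most aldehyde dehydrogenases oxidise reactive aldehydes to carboxylic acids with NAD or NADP as the acceptor. Several groups matter here by role: enzymes that clear lipid aldehydes (Aldh3a1, Aldh3b1), enzymes that turn retinal into the morphogen retinoic acid (Aldh1a1, Aldh1a2, Aldh1a3), and mitochondrial enzymes (Aldh1l2 of folate metabolism, Aldh2 of acetaldehyde clearance, Aldh18a1 of proline synthesis). Aldh3a1 is best known as an abundant protein of the corneal epithelium. Retinoic acid is a classic signal for ESCs to leave pluripotency.

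Values are RMA values on the log2 scale. A floor was set at the 40th percentile of all values, 7.34, and a gene is called higher or lower in a pair of arrays where the values are 2-fold or more apart and the higher one exceeds the floor. Where the lower value lies under the floor, the fold is given as a minimum, counted from the floor. Shares of all genes are over genes above the floor on at least 1 array of the pair. Counts of members and list genes are over all those measured. Those under the floor on both arrays could not be called. The 6 Utx arrays had medians of 7.68 to 7.84 and the Nanog KO array one of 8.55. Several differences from that array are therefore also given after the medians were aligned. Kdm6a checked the genotype labels: KO minus WT was -1.15 in ESCs, -1.90 in MEFs without DOX and -1.36 with DOX. Pou5f1, which encodes Oct4, read 12.14 and 12.32 in WT and KO ESCs, 8.19 in WT MEFs without DOX, 12.59 in WT MEFs with DOX and 11.91 on the Nanog KO array. The KO-labelled MEF libraries read 11.26 without DOX and 5.12 with DOX. Pou5f1 thus goes against the DOX labels of both, so both are called KO-labelled throughout and their directions are those of the labels, right or wrong. Of the 10 pluripotency markers, 10 exceeded the floor on each ESC array and at most 1 on any fibroblast array. Of 9 fibroblast markers measured, 9 exceeded it in WT MEFs without DOX, on both KO-labelled MEF arrays and in the Nanog KO fibroblasts, compared with 4 in WT MEFs with DOX. WT ESCs had 7 of these 9 above the floor and KO ESCs 1.

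Aldh3a1 (probe set 10376765), which oxidises medium-chain and lipid-derived aldehydes, was high on 3 arrays and under the floor on 4. It read 11.57 in WT MEFs with DOX, 10.78 in the KO-labelled no-DOX library and 10.78 on the Nanog KO array. It read 4.84 in WT MEFs without DOX, 4.72 in the KO-labelled DOX library, 4.85 in WT ESCs and 4.87 in KO ESCs. The arrays fell into a high and a low set with nothing between, and the gap from the lowest high array to the highest low one exceeded the range inside either set. All 3 high arrays had Pou5f1 above 11, but so did both ESC arrays, where Aldh3a1 was under the floor, as in uninduced WT MEFs. Its range over the 7 arrays, 6.85, was number 43 in size among 11589 genes above the floor on at least 1 array, whose median range was 1.61.

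The difference with DOX in WT MEFs was 6.73 on the log2 scale, at least 18.8-fold, rank 6 from the top of 9524 genes. Between the KO-labelled MEFs the sign was the opposite: DOX minus no DOX was -6.06, rank 2 from the bottom of 9119 genes, with Pou5f1 at rank 1. Genotype differences, KO minus WT, were 5.94 without DOX, the highest of 9253 genes and at least 10.9-fold, and -6.85 with DOX, at least 18.8-fold lower. The ESC genotypes, at 0.02, lay under the floor in both. The Nanog KO array minus WT MEFs with DOX was -0.79 as deposited and -1.53 after alignment of medians, so the call of a 2-fold difference there depends on the scaling.

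**Figure D1:**
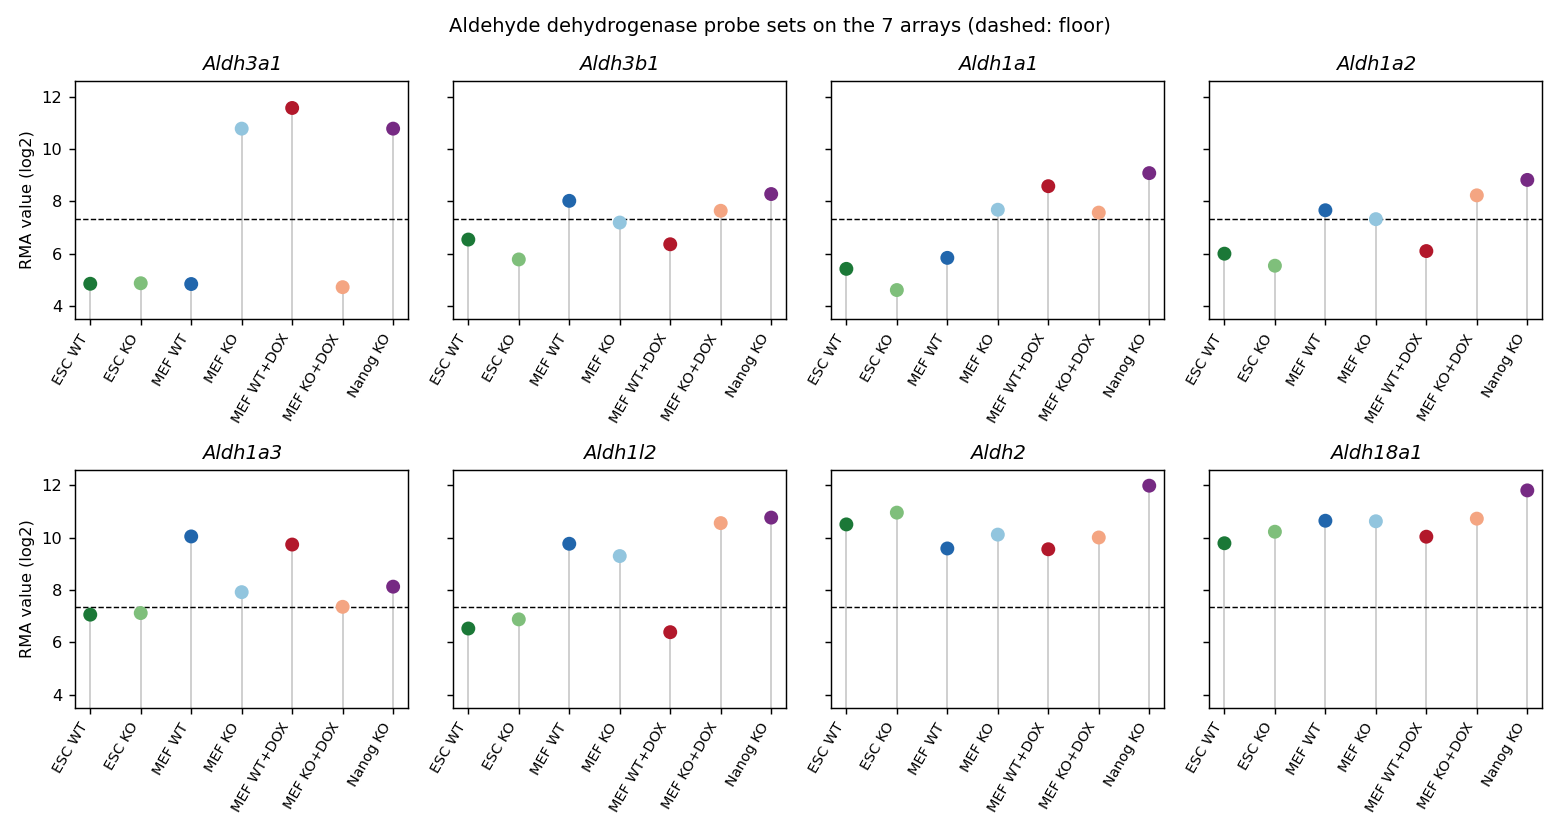
RMA values (log2, vertical axis) of the 8 genes on each of the 7 arrays, 1 point per array, with KO marking the labels as given. The dashed line is the floor at 7.34. Aldh3a1 stands at 10.78 to 11.57 on 3 arrays and at 4.72 to 4.87 on the other 4, whereas Aldh2 and Aldh18a1 lie above the floor on all 7.

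The 3 retinal-oxidising genes each followed a pattern of their own. Aldh1a1 (probe set 10461979), the cytosolic retinal dehydrogenase of many adult epithelia and stem cells, read 5.42 and 4.61 in WT and KO ESCs and 5.84 in WT MEFs without DOX. It read 8.58 in WT MEFs with DOX, 7.68 and 7.57 in the KO-labelled MEFs without and with DOX, and 9.08 on the Nanog KO array. The low arrays were thus the ESCs and the uninduced WT MEFs, and the KO-labelled MEFs differed from each other by only -0.11. The DOX difference in WT MEFs was 2.74, at least 2.4-fold, and KO minus WT without DOX was 1.84, at least 1.3-fold. With DOX, KO minus WT was -1.01, which is at the limit of a call: aligned medians gave -0.98 and quantile normalization -0.95. Its close relative Aldh1a7, whose transcript is similar enough that probes may share signal, stayed under the floor on all 7 arrays, at 4.14 to 6.34.

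Aldh1a2 (probe set 10586865), the main retinoic acid producing enzyme of embryonic mesoderm, was like Aldh1a1 under the floor in ESCs. It was also under the floor in WT MEFs with DOX, where Aldh1a1 was highest among the 4 Utx MEF arrays. As deposited, both genes were highest on the Nanog KO array, but not after alignment of medians. Aldh1a1 then read 8.43 there, against 8.66 in WT MEFs with DOX. Aldh1a2 then read 8.16 there, against 8.34 in the KO-labelled DOX library. As deposited, Aldh1a2 read 7.66 in uninduced WT MEFs and 6.10 with DOX, 7.32 and 8.23 in the KO-labelled MEFs without and with DOX, and 8.82 on the Nanog KO array. Both ESC arrays lay under the floor, at 6.0 in WT and 5.54 in KO. DOX minus no DOX in WT MEFs was -1.56, at least 1.3-fold lower, and in the KO-labelled MEFs 0.91, which is under the 2-fold call. With DOX the library labelled KO was higher than WT by 2.13, at least 1.9-fold.

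Aldh1a3 (probe set 10564417), the retinal dehydrogenase of sensory and surface epithelia, followed the genotype labels in the MEFs and not DOX. It read 10.05 and 9.74 in WT MEFs without and with DOX, and 7.92 and 7.36 in the libraries labelled KO. The Nanog KO array read 8.13, or 7.48 after alignment of medians, and the ESCs 7.06 and 7.12. KO minus WT was -2.13 without DOX, 4.4-fold lower, and -2.37 with DOX, 5.2-fold lower. The DOX differences were small by comparison, -0.31 in WT and -0.55 in KO-labelled MEFs. The 2 genotype differences share no array and had the same sign, whereas for Aldh3a1 and Aldh1a1 the corresponding pair had opposite signs.

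The start regions of Aldh1a1 and Aldh1a2 are shown. Among those available for the members, only these held the octamer ATGCAAAT, which the induced factor Oct4 binds. The levels of the 2 genes moved in opposite directions with DOX in WT MEFs. Aldh3b1, whose region held 0 octamers, was lower there too, by -1.66 against -1.56 for Aldh1a2. RefSeq promoter entries (GRCm38.p6, 250 bases before to 50 after the start, printed on the gene's strand) were matched for 4 of the 8 members. The region of Aldh1a1 lies at chr19:20601718-20602017 on the plus strand, and that of Aldh1a2 at chr9:71215539-71215838 on the plus strand. Capitals mark the octamer, searched on both strands.
Aldh1a1: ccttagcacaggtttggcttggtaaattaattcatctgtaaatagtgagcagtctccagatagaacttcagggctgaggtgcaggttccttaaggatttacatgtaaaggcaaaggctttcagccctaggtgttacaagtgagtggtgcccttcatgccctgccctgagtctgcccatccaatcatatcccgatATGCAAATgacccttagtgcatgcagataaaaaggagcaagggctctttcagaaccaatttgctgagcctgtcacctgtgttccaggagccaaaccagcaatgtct
Aldh1a2: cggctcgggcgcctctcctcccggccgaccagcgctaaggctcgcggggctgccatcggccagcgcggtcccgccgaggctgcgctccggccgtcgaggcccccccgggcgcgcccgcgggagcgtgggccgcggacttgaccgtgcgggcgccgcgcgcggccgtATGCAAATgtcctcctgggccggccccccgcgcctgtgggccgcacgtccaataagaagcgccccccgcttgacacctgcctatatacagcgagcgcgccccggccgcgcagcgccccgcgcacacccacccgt
Each region held 1 octamer on the printed strand, at bases 195 to 202 in Aldh1a1 and at bases 167 to 174 in Aldh1a2. Of all 32851 promoter entries of this length, 1.74% held it. Aldh1a1 has another start region in the table, at chr19:20492333-20492632, with 0 octamers, and those of Aldh3b1 and Aldh18a1 held 0 as well. The Aldh1a2 region had 50 CpG dinucleotides and 78.0% G and C, and 0.9% of all entries had as many CpGs or more. The Aldh1a1 region had 1 CpG and 47.0% G and C, against a median of 7 and 52.7% over all entries. A second run of letters, GGGCGG, was also searched. It had 2 matches in the Aldh3b1 region, 1 in that of Aldh18a1 and 0 in the printed regions, and 35.66% of all entries held it. The octamer was chosen for search after these sequences and the levels had been seen, and a match is a run of letters and not a measured binding site.

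Of the mitochondrial enzymes, Aldh1l2 varied most. Aldh1l2 (probe set 10371332) oxidises formyl-tetrahydrofolate and makes NADPH in mitochondria. It read 9.77 in uninduced WT MEFs and 6.39 with DOX, 9.30 and 10.56 in the KO-labelled MEFs without and with DOX, and 10.77 on the Nanog KO array. The ESCs read 6.53 and 6.88, so WT MEFs with DOX and both ESC arrays lay under the floor, while the other 4 fibroblast arrays lay above it. DOX minus no DOX was -3.38 in WT MEFs, at least 5.4-fold lower, and 1.26 in the KO-labelled MEFs, 2.4-fold higher. With DOX, KO minus WT was 4.17, at least 9.3-fold higher.

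Aldh2 (probe set 10533345), the acetaldehyde-oxidising enzyme of mitochondria, lay above the floor on every array and was called in none of the comparisons among the Utx arrays, where it ranged from 9.56 to 10.96. It read 10.51 and 10.96 in ESCs, 9.59 and 9.56 in WT MEFs without and with DOX, 10.12 and 10.01 in the KO-labelled libraries, and 11.99 on the Nanog KO array. DOX differences were -0.03 in WT and -0.12 in KO-labelled MEFs. KO minus WT was positive in all 3 contexts, at 0.44, 0.54 and 0.45, each under 2-fold. The Nanog KO array was above WT MEFs with DOX by 2.43, or by 1.70 after alignment.

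Aldh18a1 (probe set 10467470), which catalyses the first steps from glutamate to proline, read 9.79 and 10.23 in ESCs and 10.65 and 10.04 in WT MEFs without and with DOX. It read 10.63 and 10.73 in the KO-labelled libraries and 11.81 on the Nanog KO array. Its differences among the Utx arrays stayed under 2-fold, with -0.62 for DOX in WT MEFs and 0.70 for KO minus WT with DOX. The Nanog KO array was higher than WT MEFs with DOX by 1.78, or 1.04 after alignment.

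Aldh3b1 (probe set 10464560), a membrane-associated enzyme for lipid aldehydes and the family relative of Aldh3a1, did not share its pattern. It read 8.02 in uninduced WT MEFs and 6.36 with DOX, 7.19 and 7.64 in the KO-labelled MEFs without and with DOX, 8.28 on the Nanog KO array, and 6.54 and 5.78 in ESCs. DOX minus no DOX in WT MEFs was -1.66, at least 1.6-fold lower, where Aldh3a1 was at least 18.8-fold higher. Aldh3b1, Aldh1a2 and Aldh1l2 were all under the floor in ESCs and in WT MEFs with DOX. As deposited, all were highest on the Nanog KO array, but after alignment of medians none was. That array then read 7.63, 8.16 and 10.12. Aldh3b1 was then highest in uninduced WT MEFs, at 8.10. Aldh1a2 and Aldh1l2 were then highest in the KO-labelled DOX library, at 8.34 and 10.67. Over the 7 arrays, which share no RNA but were chosen as contrasting conditions, Pearson's r was 0.96 for Aldh3b1 with Aldh1a2, 0.91 for Aldh3b1 with Aldh1l2 and 0.97 for Aldh1a2 with Aldh1l2. Without the Nanog KO array r was 0.94, 0.88 and 0.96. These pairs were singled out after the values were seen.

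Counted over the whole set, the members called in the MEFs went in both directions in every comparison. With DOX in WT MEFs, 2 of 8 members were called higher (Aldh3a1, Aldh1a1) and 3 lower (Aldh1l2, Aldh3b1, Aldh1a2), while 11.9% of 9524 genes were called higher and 13.7% lower. In MEFs with DOX, KO minus WT, 3 were higher (Aldh1l2, Aldh1a2, Aldh3b1) and 3 lower (Aldh3a1, Aldh1a3, Aldh1a1), against 14.3% and 12.1% of 9572 genes. Since the choice of members used these contrasts, nothing is read from the counts. Without DOX, KO minus WT gave 2 higher (Aldh3a1, Aldh1a1) and 1 lower (Aldh1a3), against 5.04% and 9.53% of 9253 genes, or 6.99% and 7.07% with aligned medians. Between the KO-labelled MEFs 1 was higher with DOX (Aldh1l2) and 1 lower (Aldh3a1), against 6.81% and 2.93% of 9119 genes, or 5.01% and 3.94% with aligned medians. Aligned medians left the member counts without DOX and between the KO-labelled MEFs as they were.

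Between the ESC genotypes 0 of 8 members were called, where 0.651% of 8598 genes were higher and 3.18% lower. Of the members only Aldh2 and Aldh18a1 lay above the floor there, so nothing is read from this count for the other 6. WT ESCs set against WT MEFs without DOX had 4 members lower (Aldh1l2, Aldh1a3, Aldh1a2, Aldh3b1) and 0 higher, against 19.8% and 14.5% of 9673 genes. Set against WT MEFs with DOX they had 3 lower (Aldh3a1, Aldh1a1, Aldh1a3) and 0 higher, against 16.7% and 13.6% of 9463 genes. Both comparisons share the ESC array. Aldh1a3 was called lower in both, at least 6.5-fold and at least 5.3-fold. The Nanog KO array, set against WT MEFs with DOX, had 5 members higher (Aldh1l2, Aldh1a2, Aldh2, Aldh3b1, Aldh18a1) and 1 lower (Aldh1a3), where 37.2% of 10833 genes were higher and 5.53% lower at a median shift of 0.76. With aligned medians 5 members were higher and 2, Aldh1a3 and Aldh3a1, lower, against 13.1% and 13.3% of genes.

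**Figure D2:**
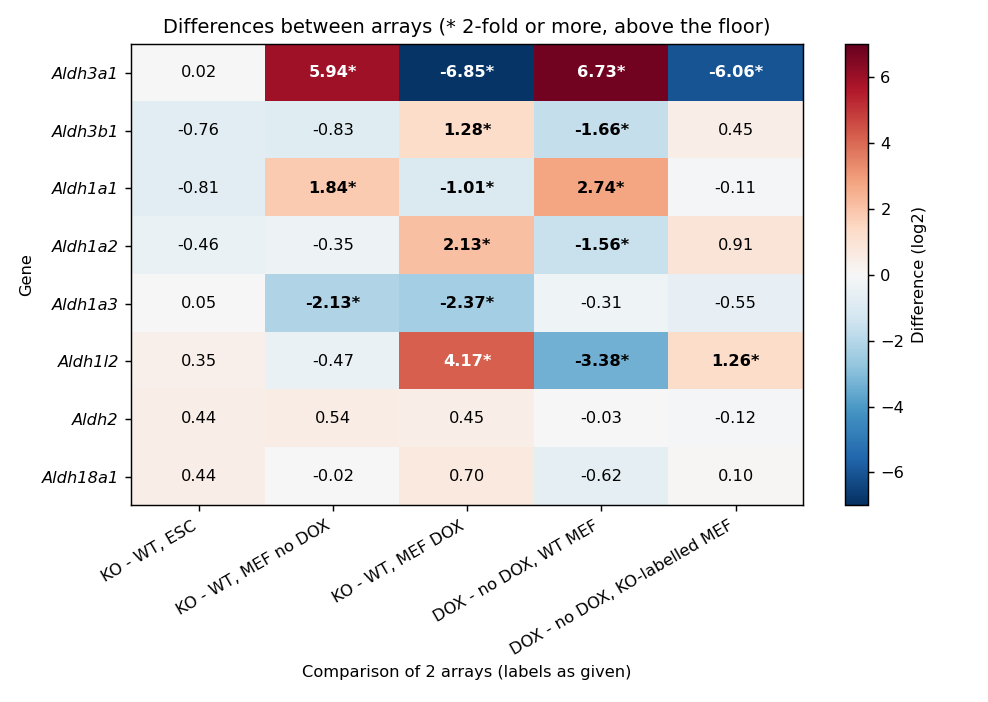
Differences on the log2 scale between pairs of arrays (columns) for the 8 genes (rows), with colour from -7 to 7 and an asterisk on calls of 2-fold or more above the floor. Aldh3a1 changes sign from column to column (5.94, -6.85, 6.73 and -6.06), Aldh1a3 has -2.13 and -2.37 for genotype in the MEFs, and no member is called in ESCs.

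Markers of other cell types moved with some of these levels. Epithelial and stratified epithelial markers, 9 measured of 11 listed, had a median level of 11.65 in WT MEFs with DOX, where 9 of 9 exceeded the floor. On the Nanog KO array the median was 8.18 with 7 of 9 above the floor, and in the KO-labelled no-DOX library 6.79 with 3 of 9. On these same 3 arrays Aldh3a1 was high. Marker levels here and in the next paragraph are as deposited, and the Nanog KO array has the highest median of the 7, 8.55. Its count of markers above the floor may be lower after alignment, as Krt18 read 7.51 there. In the KO-labelled no-DOX library, where Aldh3a1 read 10.78, the 3 markers above the floor were the adhesion gene Cdh1 at 9.54, Krt8 at 7.89 and Dsp at 7.64. The rest lay under it, among them Krt14 and Krt16, keratins of stratified epithelia, at 5.74 and 5.05. Compared with uninduced WT MEFs, 2 of the 9 markers were higher there (Cdh1, Dsp) and 1 lower (Sprr1a), with 4 above the floor in this pair. The shares of all genes were 5.04% and 9.53%. ESCs had 5 and 3 of the 9 markers above the floor with Aldh3a1 at 4.85 and 4.87. Uninduced WT MEFs had 1 of 9 and the KO-labelled DOX library 0 of 9.

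Fibroblast markers had a median level of 6.59 in WT MEFs with DOX, 11.84 in WT MEFs without DOX, 11.25 and 11.46 in the libraries labelled KO and 12.13 on the Nanog KO array. In WT and KO ESCs the median was 8.97 and 6.46. In WT MEFs with DOX, where the median was lowest among the fibroblast arrays, Aldh1l2, Aldh1a2 and Aldh3b1 were all under the floor. Aldh1a2 and Aldh3b1 were under it in the KO-labelled no-DOX library as well. Macrophage markers had a median of 9.53 in uninduced WT MEFs and 5.29 with DOX, with 10 of 10 and 1 of 10 above the floor, and 6.10 and 7.18 in the libraries labelled KO. On the Nanog KO array the macrophage median was 8.39, with 7 of 10 above the floor. Of 5 endothelial markers 2 were measured, Tek and Pecam1. Tek, an angiopoietin receptor, moved with Aldh3a1 over the fibroblasts: it read 10.01 in WT MEFs with DOX, 9.88 in the KO-labelled no-DOX library and 12.01 on the Nanog KO array. It read 6.43 in uninduced WT MEFs and 6.83 in the KO-labelled DOX library, both under the floor, and 8.03 and 8.87 in ESCs. Pecam1, an adhesion protein listed here as an endothelial marker, was under the floor on all 5 fibroblast arrays, at 5.15 to 5.83. In WT and KO ESCs Pecam1 read 8.69 and 9.06, above the floor. The part of these cells in the enzyme levels was not tested. In RNA from whole cultures, fewer cells of a type and less RNA per cell cannot be told apart.

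**Figure D3:**
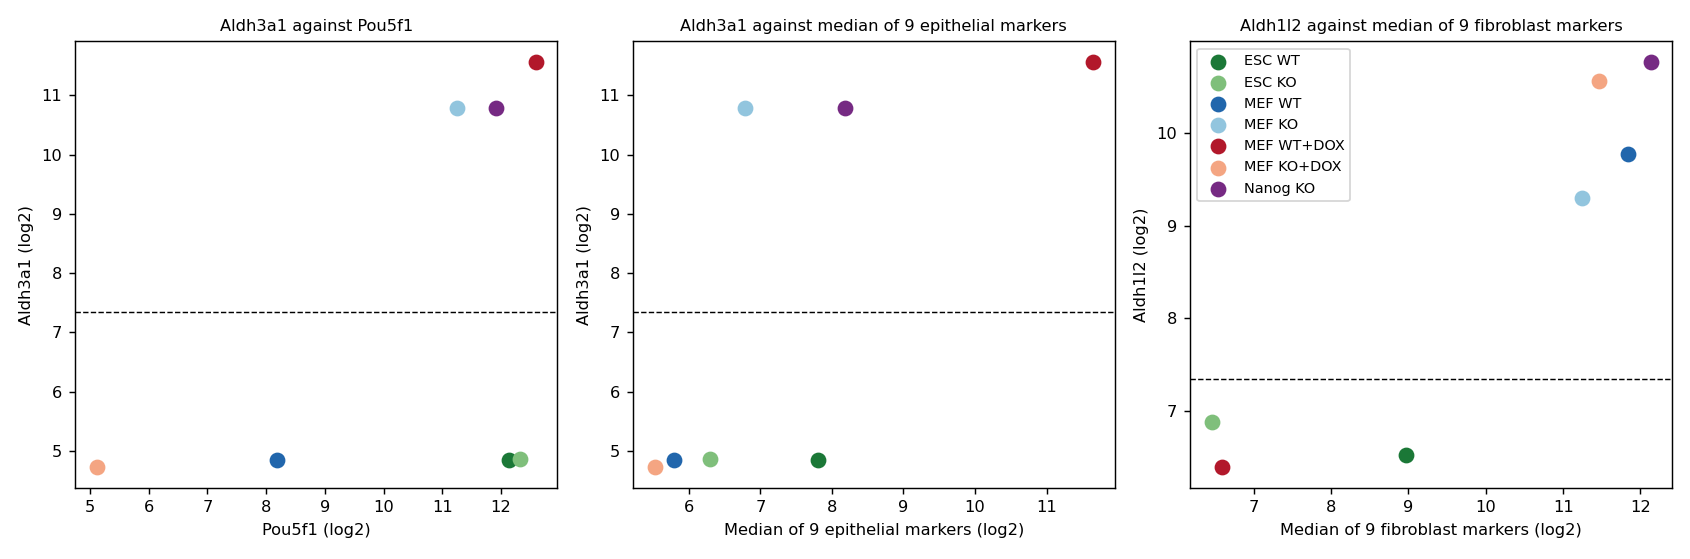
One point per array, all axes RMA values (log2): Aldh3a1 against Pou5f1 (left), Aldh3a1 against the median of 9 epithelial markers (middle) and Aldh1l2 against the median of 9 fibroblast markers (right); the dashed line is the floor. The ESC arrays combine high Pou5f1 (12.14 and 12.32) with low Aldh3a1, and Aldh1l2 is under the floor in the WT MEFs with DOX and on both ESC arrays.

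Of 13 other aldehyde dehydrogenases listed, 12 were measured, and their ranges over the 7 arrays as deposited were 1.15 to 3.01, against 2.02 to 6.85 for the 8 members. Since the members were chosen with earlier results of these data known, nothing is read from that contrast. Among the 12, Aldh3b2, a lipid-aldehyde enzyme and relative of Aldh3b1, was the only one called with DOX in WT MEFs: it read 6.09 without and 8.45 with DOX, at least 2.2-fold higher. It read 6.51 and 6.14 in the libraries labelled KO and 8.05 on the Nanog KO array, so unlike Aldh3a1 it stayed under the floor in the KO-labelled no-DOX library. Aldh3b3, another relative, has 2 probe sets of unlike level: 1 read 9.77 and 10.43 without and with DOX in WT MEFs, the other 3.56 and 6.29. A further probe set annotated to both Aldh3b2 and Aldh3b3 read 5.05 and 10.01 there, and signal may be shared between these related genes.

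With DOX, KO minus WT, 8 of the 12 exceeded the floor. In this pair 2 were higher and 1, Aldh3b2, was lower, against 14.3% and 12.1% of all genes. With the Nanog KO array set against WT MEFs with DOX, 10 of the 12 exceeded the floor. Of the 12, 7 were higher on the Nanog KO array and 0 lower, against 37.2% and 5.53% of all genes. With aligned medians 3 were higher and 1 lower, against 13.1% and 13.3%. Aldh7a1, of lysine breakdown, read 9.22 in WT MEFs with DOX and 10.50 in the KO-labelled DOX library, 2.4-fold higher. Aldh1l1, the cytosolic counterpart of Aldh1l2, read 5.71 and 7.96 there, at least 1.5-fold higher. It was the only one called in ESCs, at 7.54 in WT and 6.52 in KO, at least 1.1-fold lower. With the floor at the 60th percentile it was not called in ESCs. Aldh4a1, which completes proline breakdown, read 8.49 in WT ESCs, 7.44 in uninduced WT MEFs and 7.06 with DOX. Aldh3a2, the fatty aldehyde dehydrogenase, read 8.25 in WT ESCs and 9.68 in WT MEFs with DOX, 2.7-fold apart, and 9.16 in WT MEFs without DOX. Aldh9a1, which acts on aminobutyraldehyde, ranged over 8.95 to 10.83, Aldh6a1 of valine breakdown over 7.66 to 9.66, and Aldh16a1 over 6.39 to 7.55. Aldh1b1, a mitochondrial relative of Aldh2, and Aldh5a1, which breaks down a GABA product, exceeded the floor only on the Nanog KO array, at 8.49 and 7.67, or 7.84 and 7.02 after alignment of medians.

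**Figure D4:**
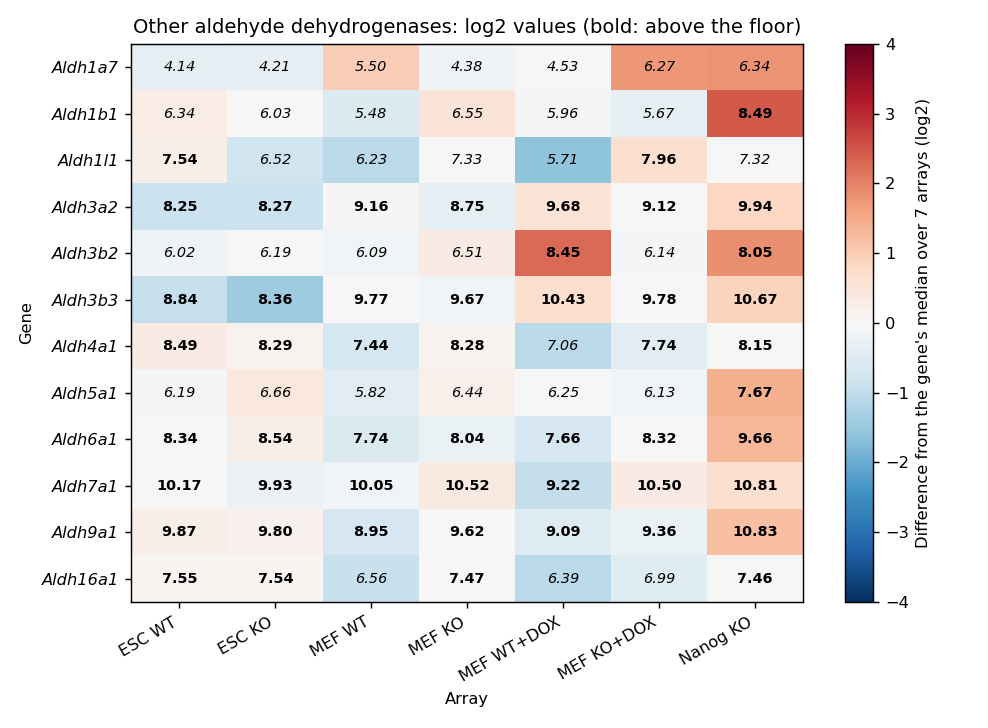
RMA values (log2, printed; bold above the floor) of 12 other aldehyde dehydrogenases (rows) on the 7 arrays (columns), coloured by the difference from the gene's median over the arrays. Aldh3b2 stands at 8.45 in WT MEFs with DOX and 8.05 on the Nanog KO array, and at 6.02 to 6.51 elsewhere.

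Genes of retinoid handling around the retinal-oxidising enzymes differed in part. Of 12 genes measured for retinol oxidation, storage and transport, 8 exceeded the floor in WT MEFs without or with DOX. With DOX 0 were called higher and 1 lower, where 11.9% of all genes were higher and 13.7% lower. The list median was -0.12 over the genes measured and -0.09 over those above the floor. Over all genes above the floor it was 0.00. The lower one was Dhrs9, a retinol dehydrogenase, at 8.29 without and 6.88 with DOX. Of 8 genes for retinoic acid binding, receptors and breakdown, 0 were higher and 2 lower, with a median of -0.29. Crabp1, a cytosolic retinoic acid binding protein, read 12.26 without and 7.53 with DOX, 26.5-fold lower, and 12.07 in the KO-labelled DOX library. Fabp5, which also carries retinoic acid, read 10.38 and 8.95. Crabp2 read 11.67 and 11.86 and was not called. WT ESCs had 5 of these 8 lower than uninduced WT MEFs and 0 higher, against 19.8% and 14.5% of all genes, with Crabp2 at 7.43 against 11.67. On the Nanog KO array the retinol-oxidising Adh1 and Adh7 read 12.17 and 11.25, against 5.76 and 7.44 in WT MEFs with DOX, differences of 5.67 and 3.07 after alignment. There Stra6, the retinol uptake receptor, read 10.23 against 7.14 as deposited.

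Folate and proline genes belong to the pathways of Aldh1l2 and Aldh18a1. Of 17 folate and serine genes measured, 13 exceeded the floor in WT MEFs without or with DOX. With DOX 0 were higher and 3 lower, at a median of -0.35, where 11.9% of all genes were higher and 13.7% lower. The 3 were Mthfd2l at 8.01 and 6.12, Mthfd2 at 10.88 and 9.46, and the mitochondrial folate carrier Slc25a32 at 8.99 and 7.85. In MEFs with DOX, KO minus WT, 13 exceeded the floor. In this pair 4 were higher and 0 lower, against 14.3% and 12.1% of all genes. Among the 4 were Mthfd2l by 1.91 and Mthfd2 by 1.32. WT ESCs had 6 higher and 2 lower than uninduced WT MEFs, against 14.5% and 19.8% of all genes, led by the glycine cleavage genes Amt, 10.41 against 5.97, and Gldc, 9.38 against 5.63, although the Aldh1l2 difference there was -3.24. Of 8 proline and glutamate genes, 7 exceeded the floor in WT MEFs without or with DOX. With DOX 1 was higher and 3 lower, beside the same shares of 11.9% and 13.7%. Prodh, which breaks proline down, read 6.30 without and 8.62 with DOX, at least 2.4-fold higher. P4ha2, which hydroxylates proline in collagen, read 10.10 and 7.53, and Oat, which links ornithine to proline, 11.28 and 9.74.

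Genes that share regulators with Aldh3a1 in the literature, the targets of the aryl hydrocarbon receptor and of NRF2, were listed together with regulator genes. These regulator genes were Ahr, Arnt, Nfe2l2 and Keap1, and the list held genes of both directions. Of 15 listed genes measured, regulators included, 14 exceeded the floor in WT MEFs without or with DOX. With DOX 3 were higher and 4 lower, against 11.9% and 13.7% of all genes. The median was -0.14 over the genes measured and -0.27 over those above the floor. Gsta4, a glutathione transferase for the lipid aldehyde hydroxynonenal, read 7.84 without and 12.26 with DOX, 21.5-fold higher, and 10.40 and 7.68 in the KO-labelled MEFs without and with DOX. Its order over the fibroblast arrays was close to that of Aldh3a1, but Gsta4 was also high in WT ESCs, at 11.92. Tiparp, a target of the aryl hydrocarbon receptor, read 8.47 and 10.65 without and with DOX in WT MEFs, and Nqo1, a quinone reductase, 6.58 and 8.06. Cyp1b1, another target of that receptor, went the other way, at 10.73 and 7.67, as did the receptor gene Ahr, at 9.86 and 8.72. Slc7a11 and Hmox1 of the same list were lower with DOX too, at 9.33 and 7.58 and at 10.74 and 9.53. Of 10 aldehyde and carbonyl reductases, 1 was higher and 2 lower: Akr1c14 read 4.47 and 7.86, Akr1b8 9.13 and 5.95, and Cbr2 10.38 and 6.51.

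The genes most like each member were ranked by Pearson's r over the 7 arrays, among 4086 genes above the floor with a range of at least 2 on the log2 scale. For Aldh3a1 they were Vtcn1 (r = 0.98), Lgals7 (0.971), Calcb (0.968), Mgst3 (0.966) and Dock9 (0.965), and without the Nanog KO array their r was 0.958 to 0.979. Vtcn1, a B7-family surface protein, read 10.10 in WT MEFs with DOX, 8.11 in the KO-labelled no-DOX library, 8.47 on the Nanog KO array and 4.81 to 5.02 elsewhere. Mgst3 is a membrane glutathione transferase and Lgals7 a galectin of stratified epithelia. Aldh1a3 was followed by Sema7a (0.989), Serpinb2 (0.983) and Cxcl16 (0.953), and Serpinb2, a protease inhibitor, read 8.06 and 7.87 in WT MEFs without and with DOX and 4.69 and 4.75 in the libraries labelled KO. Aldh1l2 was followed by Mdfic (0.999), Atf5 (0.994), a stress-response transcription factor, and Ccn3 (0.993). Aldh1a2 was followed by Fgfrl1, Fkbp7 and Entpd5 (0.997 to 0.995), Aldh3b1 by Rhoq, Twist2 and Clip2 (0.995 to 0.992), and Aldh1a1 by Nr1d1, Bnc1 and Nudt7 (0.987 to 0.976). Aldh2 was followed by Ech1, Cdc42ep4 and Saal1 (0.986 to 0.979), and Aldh18a1 by Decr1, Gpam and Pacc1 (0.989 to 0.981). Values this close to 1 come from the top of 4086 genes over 7 points and describe these arrays only.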

How the data were processed

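The deposited values are log2 values. Per the submitters' processing notes, the authors used RMA in Affymetrix Expression Console, a method that subtracts background, makes arrays comparable and joins the probes of a set. Versions, the genome build and whether the Nanog KO array was processed with the others: not given in the sources used here. Per the labels' protocols, all samples have ESC medium and a labelling kit for 3-prime arrays. The table held 21811 rows for 7 samples, with 0 missing values. Depth has no counterpart on arrays, and their number limits the precision.

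Of the rows, 14894 had 1 gene symbol in the platform annotation, 925 with several were dropped, and 5992 had no entry. For 754 genes with several rows the row with the highest mean was used. Of 160 genes in 7 pathway and 5 marker lists, 122 were measured. Members and lists were chosen with earlier results of these data known. Named are all members, the other measured aldehyde dehydrogenases, called list genes with the largest differences, Pou5f1, Kdm6a and the genes most like each member. Crabp2 beside DOX, Krt8, Krt14, Krt16, Cdh1, Dsp, Sprr1a, Tek, Pecam1, Arnt, Nfe2l2 and Keap1 are named from the lists besides. Calls were tested on simulated data. The shifts put in lay well above the 2-fold limit, so this checked the code and not the error of calls on these arrays. The 6 alternatives were 2 array scalings, 2 other floors, a threshold of 1.5-fold and the mean over rows; leaving out the Nanog KO array was added after the data were seen. Python 3.11.15, numpy 2.4.6, pandas 2.3.3 and matplotlib 3.10.9 were used.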

Additional observations from a re-analysis of the deposited data

Results flagged for a closer look

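For 3 members, differences under the same contrast in separate pairs of arrays were both called and opposite in sign. With 1 array per condition none of these differences between contrasts was tested, and all use the KO MEF libraries whose Pou5f1 level goes against their DOX labels. Values under the floor enter each gap, so a smaller gap is also given with such values set to the floor. The DOX difference of Aldh3a1 was 6.73 in WT and -6.06 in KO-labelled MEFs, 12.8 apart as deposited and 7.68 counted from the floor. Its genotype difference was 5.94 without and -6.85 with DOX, which rests on the same 4 arrays and has the same gaps. The DOX difference of Aldh1l2 was -3.38 in WT and 1.26 in KO-labelled MEFs, a gap of -4.64, or -3.69 counted from the floor. The genotype difference of Aldh1a1 was 1.84 without and -1.01 with DOX, a gap of 2.84, or 1.34 counted from the floor. Its first term is at least 1.3-fold only, and the second was no longer called under either other array scaling, at -0.98 and -0.95.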

How the results depend on the processing

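The number of members called, higher and lower together, was within 1.5 times the reported count in 46 of 48 combinations of comparison and alternative. The exceptions came with the floor at the 60th percentile, 8.48, which drops genes of low level: 3 members instead of 5 with DOX in WT MEFs, and 2 instead of 4 for WT ESCs against WT MEFs without DOX. At that floor KO minus WT with DOX had 1 member higher and 3 lower instead of 3 and 3. Between the ESC genotypes the count was 0 under every setting. Each member has 1 probe set, so the mean over rows could not change a member count or difference. Dropping the floor could not change a count where all 8 members already exceeded it. Of 192 member differences under another scaling or row rule, 188 kept their sign where called and their side of the 2-fold limit. The other 4 were Aldh1a1 between the genotypes with DOX (-0.98 and -0.95, no longer called) and Aldh3a1 on the Nanog KO array against WT MEFs with DOX (-1.53 and -1.45, then called), with aligned medians and quantile normalization in turn. For the pathway lists, whose counts are small, 59 of 336 counts moved by more than 1.5 times. No paired analysis was possible because each condition has 1 array and the labels carry no replicate numbers. Folds from values under the floor are minimums, and differences among such values, as for most members in ESCs, were not detectable here.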
